A study of Mus musculus with 68 samples.

Results

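The genes described here set mouse embryonic fibroblasts (MEFs) of the NZO strain apart from those of 7 other inbred strains at rest. MEFs are primary connective tissue cells grown from embryos, and NZO (NZO/H1LtJ) is an inbred strain known for obesity and type 2 diabetes. An autosomal gene was taken as NZO-particular when both NZO control libraries lay above, or both below, all 16 control libraries of A (A/J), B6 (C57BL/6J), 129 (129S1Sv/ImJ), NOD (NOD/ShiLtJ), CAST (CAST/EiJ), PWK (PWK/PhJ) and WSB (WSB/EiJ). Of 12547 autosomal genes that reached a value of 0.5 in 2 or more control libraries, 471 met this rule (3.75%), 278 of them higher (2.22%) and 193 lower in NZO (1.54%). The founder tables listed 13197 genes in all.

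Control cells received 0.1% DMSO for 4 h, and the treated cells 2 ug/ml of tunicamycin (TM) for 4 h. TM blocks N-linked glycosylation and causes stress of the endoplasmic reticulum (ER). There were 18 founder control libraries (2 of NZO) and 22 founder TM libraries (3 of NZO). F1 MEFs came from B6 females crossed to 129, CAST, NOD, NZO or WSB males and are written x129 to xWSB, with 14 F1 control libraries (3 of xNZO). Every genotype was a pool of female embryos of the same litter, and replicates were wells of that pool treated in parallel, so p-values measure the spread between wells, and strain and litter cannot be told apart. With 8 strains the smallest exact p for a gene in which NZO ranks highest is 0.125.

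Founder controls held between 7091923 and 21530282 reads on genes, with 17629928 and 12184597 in the NZO controls. Values are reads per gene, scaled by library and not divided by gene length, so that levels are compared between libraries and not between genes. By the same rule the other strains had between 350 (NOD) and 1506 (CAST) particular genes. The sum of 11 fibroblast markers was 38780 and 39170 in the NZO controls, against 20150 to 55110 in the others. Markers of macrophages (summed 33.3 to 39.5 in NZO, 5 to 73.6 elsewhere) and endothelium (7.97 to 10.3 in NZO, 3.68 to 25.3 elsewhere) were low and within the range of the other strains. The WSB controls differed from each other in both sums. Replicate 2 was at 47.4 for macrophage and 25.3 for endothelial markers, and replicate 3 at 5 and 3.68. Replicate 1 of the A controls stood farthest from its group among founder controls (median absolute deviation 0.435 on the log2 scale), replicate 3 among the NZO TM libraries (0.408) and replicate 3 among the xNZO controls (0.253). The NZO controls deviated by 0.13.

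Strain differences in resting fibroblasts can come from sequence variants that act on a gene's own copy or through regulators, from the mix of connective tissue cells in a culture, or from how the cells were growing. The genes are described by role, from immune receptors to matrix, signalling and patterning genes and the machinery of protein and nucleotide synthesis. Counts are given for some of the gene lists that were tallied and not for all of them. Mesothelium, one of those lists, is the cell layer that lines body cavities.

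The log2 differences of the 278 higher genes (NZO minus the mean of the 7 other strain means) ran from 0.15 to 5.15 with a median of 0.88, and 112 of them were at least 2 fold. The lower genes were closer to the other strains. Their differences ran from -0.16 to -4.36 with a median of -0.48, and 36 were at least 2 fold. A gap of at least 1.5 fold between NZO and the nearest other library was seen for 25 higher and 12 lower genes. These values chose the genes and were not tested. As background only, limma (a moderated linear model fitted to all genes) called 318 genes higher (2.53%) and 172 lower (1.37%) in the same contrast, 490 in all (3.91%), among them 127 and 55 of the NZO-particular genes, and 49.7% of all genes lay above 0 and 50.3% below. At the edge of the rule, the lowest NZO control of Mink1 was at 87.8 and the nearest other library also at 87.8 (a ratio of 1.0003), and for Dip2a, which missed the rule, NZO was at 118.6 against 118.7. On the lower side Mre11a was just inside (a ratio of 1.0011), and Ncl was just outside, at 663.5 and 708.4 in NZO against a lowest other library of 708.4. The nearest library was most often from 129 (63 genes) or WSB (56) among higher genes, and from 129 (43) or A (39) among lower genes. For 3 genes (Klra7, Ms4a2 and Stxbp3-ps) no other strain's control reached the minimum value.

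**Figure D1:**
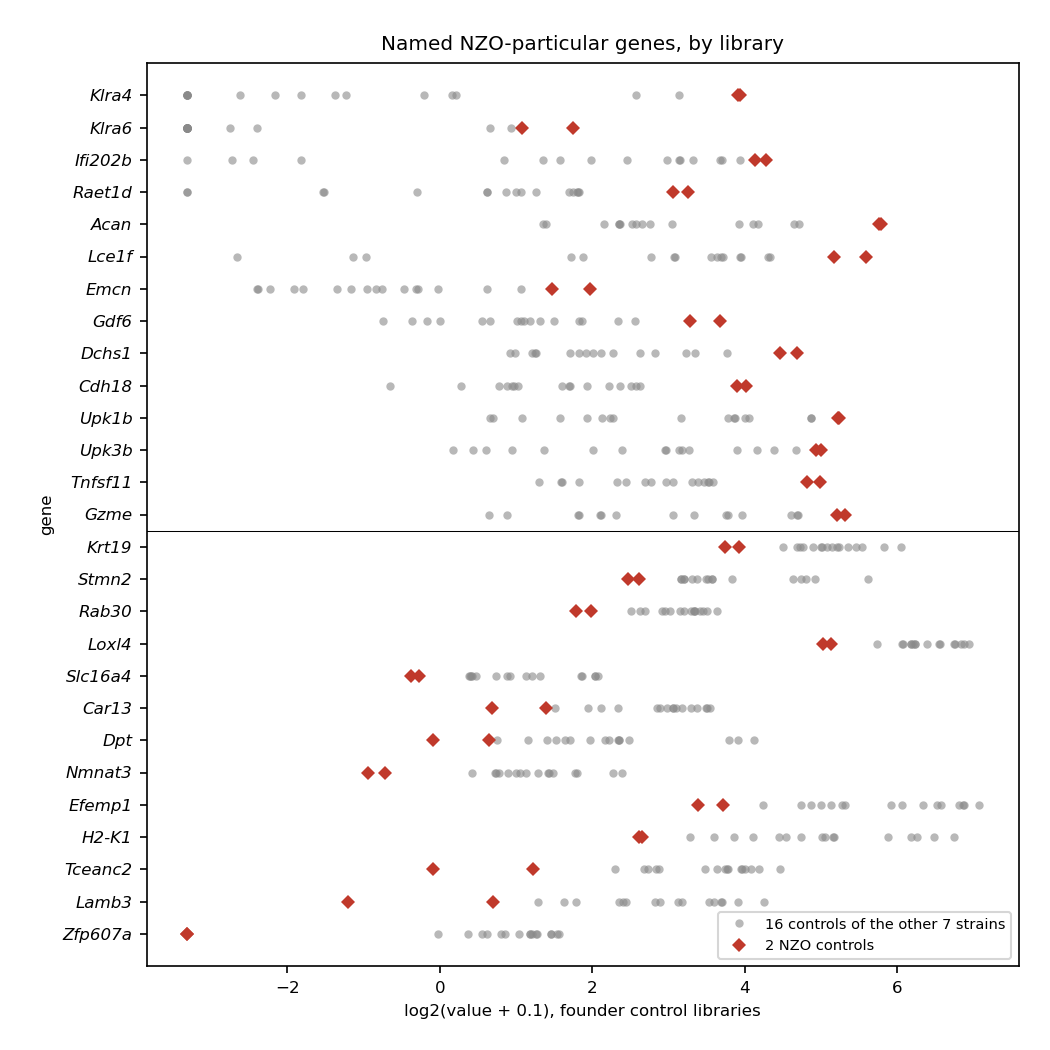
Values of 14 higher (above the line) and 13 lower (below it) NZO-particular genes, those with the largest differences among genes that limma called in the controls, with a mean of at least 2 on the higher side and a symbol that is not a clone name, on a log2(value + 0.1) axis. Each diamond is an NZO control and each grey point a control of another strain. The diamonds lie outside all grey points in every row, by the rule that chose the genes; Klra4 has the widest difference upwards (5.15) and Zfp607a, at 0 in both NZO controls, the widest downwards.

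Among immune genes, members of the Ly49 family of lectin-like natural killer cell receptors showed the largest differences. Klra4 was at 15.3 and 14.9 in the NZO controls. In the other strains it lay between 0 and 8.70 with a median of 0.153, and both CAST controls were next to NZO with a mean of 7.28. Klra6 was at 2.02 and 3.27 against 0 to 1.81, and Klra7 at 1.01 and 1.76 against 0 to 0.330. These genes lie side by side on chromosome 6 (130013033 to 130233322, GRCm38). They are related genes of a family among which reads may be split, so the level of each is uncertain. In the TM libraries, which the rule did not use, Klra4 was at 14.9, 15.9 and 21.1 against 0 to 9.05 (log2 difference 5.28 ± 0.28 SE, limma adjusted p = 2.44e-10). In the xNZO controls it was at 4.65, 3.24 and 4.27, above all 11 other F1 controls (0.275 to 2.87, difference 1.80 ± 0.25, adjusted p = 5.17e-04).

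Raet1d, a ligand of the activating receptor NKG2D, was at 9.43 and 8.23 against 0 to 3.46. It did not overlap the other genotypes in the TM libraries or in the F1 either (differences 2.82 and 1.81, limma adjusted p = 6.12e-07 and 0.00318). Ifi202b, an interferon-inducible DNA-binding protein studied as an obesity candidate in NZO crosses, was at 19.3 and 17.5. It was at or near 0 in B6 and CAST (means 0.0920 and 0.0671), 7.09 in 129 and 11.95 in NOD and 11.85 in PWK. With TM the NZO libraries (30.1 to 36.8) lay within the range of the others (0 to 37.7), and the difference of strain means was 3.19 (adjusted p = 1.96e-09). In xNZO it was at 9.19, 7.36 and 8.83, above the other crosses (0 to 6.53, difference 2.50 ± 0.13, adjusted p = 1.98e-07). The other 5 tested genes of that candidate list (Zfp69, Tbc1d1, Pctp, Lepr and Abcg1) were within the range of the other founder controls. With TM 1 of the 6 genes of the list passed as higher and 1 as lower, beside 3.98% and 2.33% of all autosomal genes. In xNZO 2 of 5 passed as higher and 0 as lower, beside 4.97% and 4.26%.

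Irgm1, a GTPase that acts in defence against intracellular microbes, was at 32.2 and 34.3 against 0.621 to 25.5. The low values were those of PWK and CAST (means 0.906 and 1.31). Its neighbours Psme2b and 9930111J21Rik1 on chromosome 11 (48861968 to 48979398) were higher as well, as was Ifi47, a related GTPase (5.61 and 4.78 against 0.118 to 4.65). With TM all 4 passed the test in the same direction, with differences of 2.14 for Irgm1 and 3.39 for 9930111J21Rik1. In xNZO only Irgm1 among these 4 passed (0.45, limma adjusted p = 0.0428), at 16.2 to 16.9 against 7.44 to 16.4, so that the groups overlapped. Of 34 interferon-stimulated genes on the list, Irgm1 and Ifi202b were NZO-particular and higher and none was lower, where 2.22% of all autosomal genes were higher and 1.54% lower. The list's median difference was 0.07. With TM 2 of its genes passed as higher and 2 as lower, beside 3.98% and 2.33% of all autosomal genes.

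Irgm1 and Ifi202b were the NZO-particular genes of that list, and the 250 bases before their start sites are shown because interferon acts through short motifs in promoters. The sequence is the RefSeq reference of B6 (GRCm38.p6), not that of NZO. Capitals mark the core of the interferon-stimulated response element (GAAA, any 2 bases, GAAA; 2 overlapping copies in Irgm1) or the gamma-activated site (TTC, any 3 bases, GAA; in Ifi202b), searched on both strands. A match is a description of these letters and not a known site. Irgm1 lies on the minus strand at chr11:48871421-48871670 and Ifi202b on the minus strand at chr1:173982845-173983094.
Irgm1: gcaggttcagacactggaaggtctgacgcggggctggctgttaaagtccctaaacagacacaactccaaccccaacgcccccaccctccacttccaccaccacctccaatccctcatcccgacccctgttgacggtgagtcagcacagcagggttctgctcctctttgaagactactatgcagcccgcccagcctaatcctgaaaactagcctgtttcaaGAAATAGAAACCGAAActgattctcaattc
Ifi202b: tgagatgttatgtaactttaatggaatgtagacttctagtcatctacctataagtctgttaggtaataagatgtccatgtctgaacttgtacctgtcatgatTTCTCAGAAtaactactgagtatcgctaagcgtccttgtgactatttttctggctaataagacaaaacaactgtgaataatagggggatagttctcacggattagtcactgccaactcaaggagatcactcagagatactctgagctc
The first motif was in such a window of 3.46% of 27025 genes, 3.24% of the 216 higher genes that matched the table and 1.85% of the 162 lower ones. The gamma-activated site was in 8.13%, 6.48% and 6.17%. Neither motif was found in these windows of Psme2b, 9930111J21Rik1, Ifi47, H2-K1, H2-DMb1 or Tap1.

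Among genes of antigen presentation, H2-K1 and Tap1 were NZO-particular and lower. H2-K1, the heavy chain of a classical class I molecule, was at 6.18 and 6.04, and the other controls ran from 9.66 (A) to 107.1 (WSB) with a median of 32.6. The order of strain means was NZO, A (12.0), CAST (20.2), NOD (24.3), 129 (34.1), B6 (34.3), PWK (79.6) and WSB (82.9). With TM, H2-K1 was at 4.34 to 6.20 in NZO against 13.1 to 94.3 (difference -2.74 ± 0.15, limma adjusted p = 2.96e-10). In xNZO it was at 9.94, 9.34 and 9.25 against 20.02 to 66.2 (-1.64 ± 0.20, adjusted p = 1.80e-04). H2-K1 belongs to a family with close copies whose reads may be split. Tap1, which pumps peptides to class I molecules, was at 4.996 and 5.62 against 6.17 to 12.4, and did not pass the test with TM (-0.44, adjusted p = 0.0545) or in the F1 (-0.52, adjusted p = 0.0966). Its neighbour H2-DMb1, a chain of the class II peptide loader, was at 0 and 0.0839 against 0.0911 to 1.88, or 0 and 1 read in NZO. Of 16 tested genes on the list, 2 were particular and lower and none higher, beside 1.54% and 2.22% of all autosomal genes, and 10 lay below 0. With TM 2 of the 16 passed as lower and 1 as higher, beside 2.33% and 3.98% of all genes. In xNZO 3 of 15 passed as lower and 2 as higher, beside 4.26% and 4.97%, with a median of -0.09. The gene that passed as higher in both was H2-T22, another class I gene, with differences of 1.69 and 0.54. It was at 27.2 and 30.4 in the NZO controls, within the range of the others (1.53 to 51.95).

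Mesothelial markers were higher in NZO. Upk1b and Upk3b encode uroplakins, membrane proteins of urothelium and mesothelium, and Msln encodes mesothelin. Upk1b was at 37.7 and 37.4 against 1.47 to 29.2, Upk3b at 32 and 30.4 against 1.03 to 25.5, and Msln at 28.8 and 27.6 against 2.65 to 19.6. NOD was next to NZO for all 3. Wt1, the fourth marker of the list, was at 6.29 and 5.12 and within the range of the others (0 to 8.70, with NOD highest). The sum of the 4 markers was 100.5 and 104.8 in NZO, and 9.26 to 82.9 elsewhere. With TM all 4 passed the limma test as higher, beside 3.98% of all autosomal genes, although Upk3b and Wt1 overlapped the other strains there. The differences were 2.53 for Upk1b, 2.27 for Upk3b, 1.89 for Msln and 1.59 for Wt1.

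In the separate xNZO cells the 4 mesothelial markers passed as higher, and markers of other cell types moved with them. Upk1b was at 21.5, 22.6 and 18.0 against 0.116 to 9.19 in the other crosses, a difference of 3.47 ± 0.26 (limma adjusted p = 3.65e-06). Upk3b was at 33.0, 33.6 and 28.0 against 0 to 16.5 (4.28 ± 0.44, adjusted p = 4.29e-05), and Msln at 18.95, 17.3 and 13.2 against 0 to 5.73 (3.36 ± 0.28, adjusted p = 7.78e-06). The groups did not overlap for any of the 3. For Wt1 the difference was 2.53 (adjusted p = 3.79e-06), and the sum of the 4 was 67.4 to 83.7 in xNZO against 3.82 to 40.0. The 4 epithelial markers fitted in the F1 (Krt8, Krt14, Krt18 and Krt19) passed as higher too, with a median of 2.97 and a sum of 45.3 to 65.1 against 3.39 to 61.4, while Cdh1 was not fitted. Of 11 fibroblast markers 4 passed as lower (Col1a1, Col1a2, Col3a1 and Pdgfrb) and Thy1 as higher, with 8 below 0, a median of -0.34 and a sum of 20530 to 25720 against 22340 to 34130. Of all autosomal genes 4.97% passed as higher and 4.26% as lower in xNZO. In founder controls the epithelial sum was 41.7 to 42.2 in NZO, within 32.1 to 132.1 elsewhere. With TM 2 of 5 epithelial markers passed as higher and 1 as lower, beside 3.98% and 2.33% of all autosomal genes. In bulk RNA, more cells of a type and more RNA per cell cannot be told apart, and the part of these cell types in the other differences of NZO and xNZO was not tested.

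**Figure D2:**
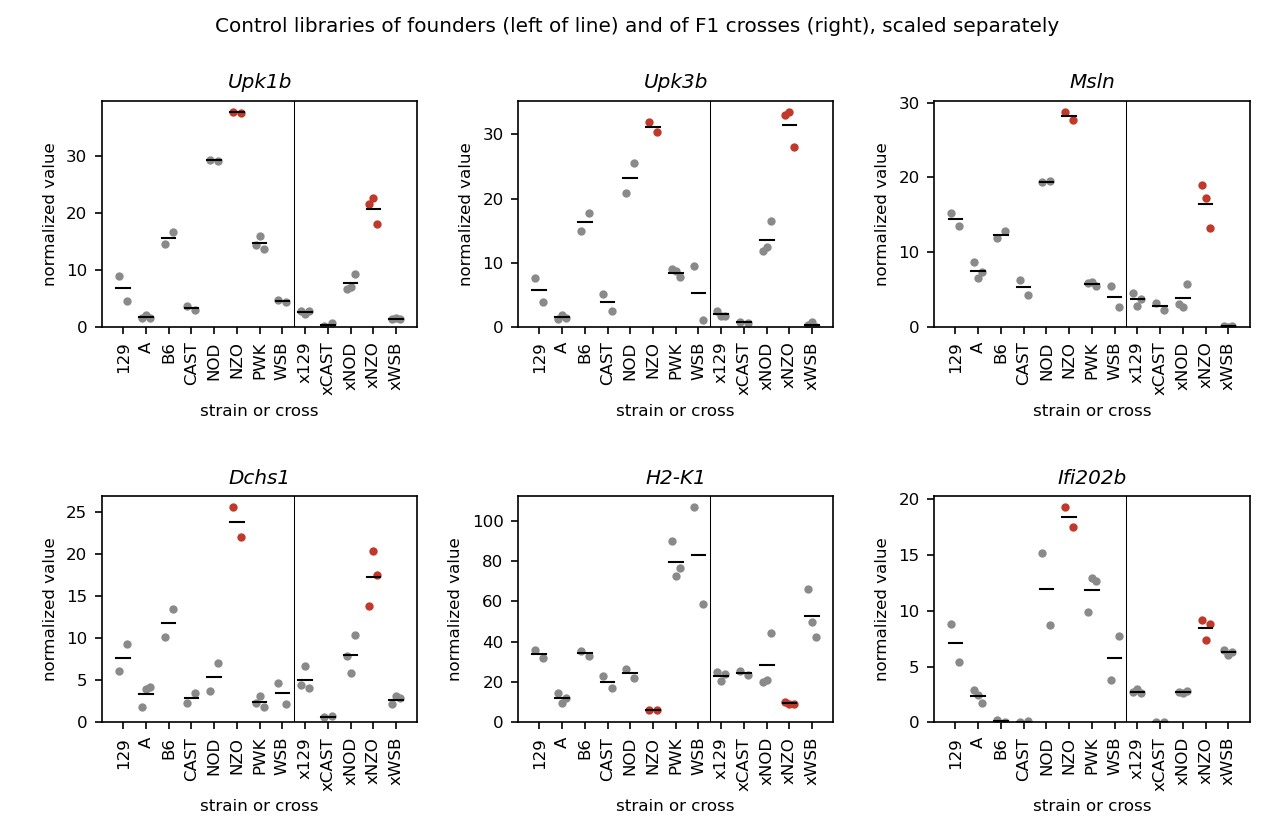
Normalized values of 6 NZO-particular genes in each control library of the 8 founder strains (left of the line) and the 5 F1 crosses (right of it), scaled separately; points are libraries, bars are genotype means, and NZO and xNZO are in red. Upk1b, Upk3b, Msln, Dchs1 and Ifi202b are highest in NZO and in xNZO, and H2-K1 is lowest in both, with no overlap within either set.

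Among structural proteins and the matrix, Acan, the large proteoglycan of cartilage, was at 54.2 and 55.0 against 2.46 to 26.2 in the other strains, with WSB next. It stayed apart with TM (47.3 to 54.1 against 1.15 to 15.3, difference 3.32, limma adjusted p = 2.56e-07). In xNZO it was at 8.11 to 12.2 and overlapped the other crosses (0 to 13.4, difference 2.13, adjusted p = 0.0413). Of 5 cartilage markers, Acan alone was NZO-particular; Comp was at 1.24 and 1.43, within 0.409 to 77.3. Mgp, an inhibitor of calcification, was at 290.7 and 348.5 against 21.6 to 177.6, and passed with TM (1.50) but not in xNZO (-0.18, adjusted p = 0.582). Des, the muscle intermediate filament desmin, was at 149.6 and 165.0 against 12.5 to 111.4 and was higher in xNZO (218.7 to 334.2, overlapping 4.83 to 257.5, difference 2.85, adjusted p = 3.08e-07). Of 6 smooth muscle markers, Des alone was NZO-particular, and their sum (14440 to 17360) lay within the others (13230 to 18960). With TM 4 of the 6 lay below 0 with a median of -0.09, and in xNZO 1 of 6 with a median of 0.25. Emcn, a sialomucin of endothelium, was at 3.82 and 2.69 against 0.0898 to 1.99. Tek, an endothelial receptor, was lower, at 0.112 and 0.0839 against 0.170 to 1.49. Pecam1 and Cdh5 were within the range of the others.

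Dchs1, a large cadherin of planar cell polarity, was at 25.6 and 22.1 against 1.80 to 13.47. It did not overlap with TM (13.6 to 19.5 against 0.958 to 7.92) or in xNZO (13.8 to 20.4 against 0.637 to 10.4), with differences of 2.66 and 2.49 (limma adjusted p = 1.05e-07 and 5.75e-06). Cdh18, a cadherin, was at 14.8 and 16.03 against 0.539 to 6.06, and in xNZO did not pass (0.89, adjusted p = 0.112). Lce1f, a late cornified envelope protein (35.8 and 48.01 against 0.0588 to 20.1) and Gzme (37.1 and 39.7 against 1.47 to 36.9) lay higher too. Gzme, a granzyme, was within the other crosses in xNZO (3.49 to 4.81 against 0.550 to 16.2).

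Secreted signals were among the higher genes. Gdf6, a BMP-family ligand of joint and limb development, was at 12.6 and 9.65 against 0.494 to 5.80. With TM it was at 7.12 to 8.11 against 0.219 to 3.09, and in xNZO at 4.25, 6.41 and 4.34 against 0.637 to 2.48 (differences 2.62 and 1.81, limma adjusted p = 4.48e-08 and 1.47e-04). Tnfsf11, the osteoclast factor RANKL, was at 31.6 and 28.0 against 2.36 to 11.9. It was at 39.7 to 48.7 with TM against 2.31 to 25.1, and in xNZO overlapped the others (4.09 to 4.75 against 0.125 to 7.07, difference 1.09, adjusted p = 0.0115). The lower side held Vegfc, a lymphatic growth factor (5.78 and 6.04 against 7.64 to 27.9), and Ccl7, a monocyte chemokine (14.8 and 15.3 against 15.7 to 67.1). Both passed in the same direction with TM (-0.84 and -0.73) and in xNZO (-0.55 and -0.72). Of 24 tested chemokines and cytokines, 1 was particular and higher and 1 lower, beside 2.22% and 1.54% of all genes. With TM 8 of 26 passed as higher and 2 as lower, and in xNZO 0 of 20 and 9. Their medians were 0.28 in the controls, 0.47 with TM and -0.48 in xNZO. Of 50 tested growth factors and antagonists, 3 were particular and higher and 2 lower. With TM 11 of 51 passed as higher and 3 as lower, and in xNZO 10 of 50 and 11. Of all autosomal genes 3.98% and 2.33% passed with TM, and 4.97% and 4.26% in xNZO.

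Among patterning genes, the Hox genes that were NZO-particular and Tbx2 were higher by 0.72 to 1.24 on the log2 scale. Of 34 tested Hox genes 5 were NZO-particular and all higher (Hoxa4, Hoxa6, Hoxa7, Hoxb2 and Hoxb8), where 2.22% of all autosomal genes were. Hoxd12 went the other way, at 0 in both NZO controls against 0 to 1.37. Hoxa7 was at 12.5 and 11.4 against 3.41 to 9.77, and Hoxb2 at 24.7 and 23.7 against 9.39 to 20.5. With TM none of the 5 passed, and in xNZO Hoxa7 was lower (-0.46, limma adjusted p = 0.0490). Of all 34 Hox genes, 1 passed as higher and 1 as lower with TM, with a median of 0.27. In xNZO 6 of the 34 passed as higher and 2 as lower, with a median of 0.37 and 10 below 0. Of all autosomal genes 3.98% and 2.33% passed with TM, and 4.97% and 4.26% in xNZO. Tbx2, a T-box factor, was at 17.5 and 15.8 against 3.90 to 10.2 and passed with TM (1.13, adjusted p = 1.97e-05), but not in xNZO (0.23, adjusted p = 0.668). Among imprinted genes, Peg3 (26.9 and 23.7 against 4.14 to 22.5) and the long noncoding RNA Meg3 (532.5 and 528.2 against 201.5 to 489.3) were higher.

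The widest difference downwards was that of Zfp607a, a zinc finger gene on chromosome 7. It was at 0 in both NZO controls and at 0.887 to 2.85 elsewhere, which is at least 20.2-fold lower against the floor of 3 reads over the pair. It was at 0, 0.0864 and 0.273 with TM against 0.626 to 4.93, and at 0.478, 0.396 and 0.498 in xNZO against 0.726 to 1.63 (difference -1.12 ± 0.27, limma adjusted p = 0.0185). Its relative Zfp607b was also particular and lower (0.674 and 0.923 against 1.15 to 2.87) but did not pass in xNZO (0.19, adjusted p = 0.790). Kcnj15, a potassium channel, was at 0 in both NZO controls too, at least 8.85-fold lower, but was at 0 to 0.462 with TM among other libraries at 0 to 3.48.

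Of 36 matrix glycoproteins and proteoglycans 1 was particular and higher and 1 lower, and of 20 collagens none was. Of all autosomal genes 2.22% were higher and 1.54% lower. With TM 6 of the 36 passed as higher and 2 as lower, beside 3.98% and 2.33% of all genes. In xNZO 6 passed as higher and 3 as lower, beside 4.97% and 4.26%. The median differences of the list were 0.13 in the controls, 0.22 with TM and -0.04 in xNZO. The other matrix genes named by the size of their difference were lower, unlike most called genes of the list. Efemp1, a fibulin of elastic matrix, was at 13.02 and 10.4 against 18.8 to 134.6, and Lamb3, a chain of laminin 332, at 1.52 and 0.336 against 2.35 to 18.9. Loxl4, a collagen cross-linking oxidase, was at 35.1 and 32.5 against 53.4 to 123.5. Efemp1, Lamb3 and Loxl4 passed in the same direction with TM and in xNZO, where the differences were -0.50, -0.72 and -0.87.

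Of other named lower genes, Tceanc2 was at 2.25 and 0.839 against 4.83 to 21.9 and had a TM difference of -3.55 (limma adjusted p = 9.98e-14) and an xNZO difference of -0.58. Nmnat3, an enzyme of NAD synthesis, was at 0.505 and 0.420 against 1.24 to 5.17 and at 0.365 to 0.554 with TM, but in xNZO at 1.90 to 2.63 within the other crosses (0.04, adjusted p = 0.952). Car13, a carbonic anhydrase, was at 2.53 and 1.51 against 2.75 to 11.6 and passed in both other sets. Rab30, a Golgi GTPase, was at 3.87 and 3.36 against 5.59 to 12.4 and passed with TM (-1.36) but not in xNZO (0.07, adjusted p = 0.830). Slc16a4, a monocarboxylate transporter family member, was at 0.730 and 0.671 against 1.21 to 4.12 and passed in neither. Stmn2, a neuronal microtubule regulator, was at 5.45 and 6.04 against 8.84 to 49.1. In xNZO, Stmn2 was at 3.45, 3.48 and 22.4, where replicate 3 alone was high. Eno2, a neuronal enolase, was at 100.1 in that library against 9.83 and 10.2 in the others.

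The smaller differences of the lower side held many genes of biosynthesis, which were grouped into 5 further lists after their values were seen and were not tested as lists. Aminoacyl-tRNA synthetases load amino acids onto tRNA in the cytosol, and 6 of 20 were NZO-particular and lower (Aars, Eprs, Gars, Lars, Rars and Yars) with none higher. Lars was at 92.1 and 92.6 against 120.5 to 218.1. Of 87 ribosome biogenesis factors 13 were particular and lower, among them Nol8 (16.5 and 16.5 against 20.5 to 34.5) and Pwp2 (50.9 and 52.0 against 58.0 to 94.1). Of 24 genes of serine, one-carbon and nucleotide synthesis 6 were, among them Mthfd2 (79.8 and 80.1 against 91.9 to 153.1) and Phgdh (337.7 and 390.2 against 416.6 to 831.4). Of 26 mitochondrial chaperones, proteases and import subunits 5 were, among them Lonp1 (97.05 and 100.5 against 115.9 to 247.9). Of 17 mitochondrial synthetases only Mars2 was. Among all autosomal genes 1.54% were particular and lower, a share that lists chosen by these values cannot be tested against. Myc, a regulator of growth genes, was at 127.1 and 127.2 against 128.8 to 188.5.

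These lists were put together from genes seen to be lower, so their control values are a description and support no shared shift. The median difference was -0.25 for the cytosolic synthetases, -0.22 for ribosome biogenesis, -0.26 for serine, one-carbon and nucleotide synthesis, -0.15 for the mitochondrial chaperones, proteases and import subunits and -0.14 for the mitochondrial synthetases. Below 0 lay 18 of 20, 82 of 87, 22 of 24, 22 of 26 and 12 of 17 genes. The summed level of the cytosolic synthetases was 3256 and 3388 in NZO, below all other controls (3579 to 5372), and that of the ribosome biogenesis factors 6772 and 7103 against 7156 to 12860. In both, replicate 1 of the A controls was highest. The sum of the mitochondrial synthetases, 693.1 and 836.5, was within the range of the others (515.3 to 2454). With TM the lists had medians of -0.12, -0.19, -0.21, -0.22 and -0.20, and 18, 74, 21, 24 and 15 of their genes lay below 0. The NZO sums then overlapped those of the other strains (4525 to 6144 against 4931 to 6634 for the cytosolic synthetases). In xNZO the medians were -0.16, -0.06, -0.10, -0.03 and -0.13, with 16, 68, 17, 15 and 12 genes below 0. Of the 31 genes on these lists that were NZO-particular, 31 had the same sign with TM and 0 were called there by limma, and 29 of them differed by less than 1.5 fold in the controls. In xNZO 26 of the 31 had the same sign and 4 were called (Lars, Phgdh, Psph and Mthfd2, from -0.27 to -0.53). Of all autosomal genes 48.4% lay below 0 there and 4.26% were called as lower.

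**Figure D3:**
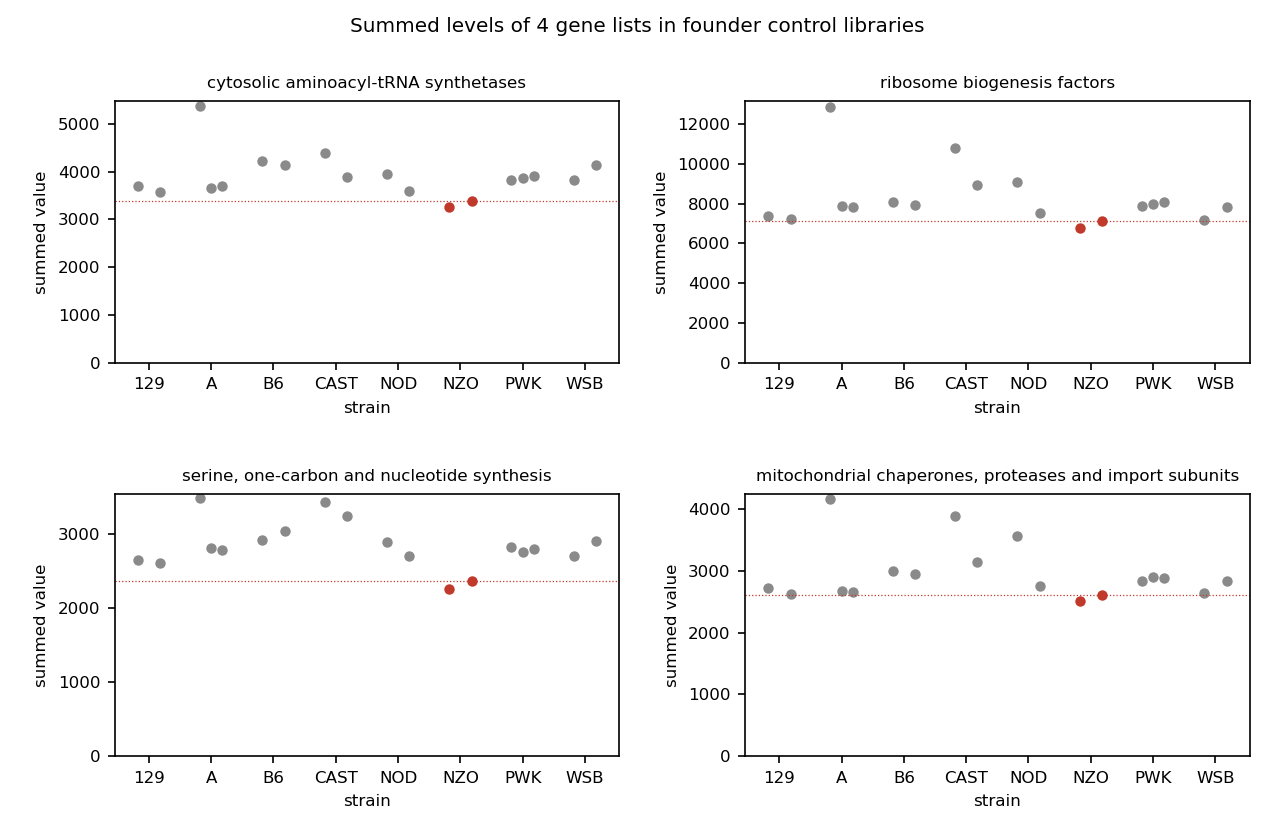
Summed normalized values of 4 gene lists, chosen after values were seen, in each founder control library by strain, on axes that start at 0. The dotted line is the higher of the 2 NZO controls (red); all other controls lie above it, by a small margin for ribosome biogenesis (7103 against 7156) and mitochondrial proteins (2611 against 2623).

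The TM libraries of the same cells, which the rule did not use, held the pattern of the controls. Of 277 higher genes that could be fitted there, 269 (97.1%) were higher again and 133 (48.0%) passed the limma test at an adjusted p below 0.01 and 1.5 fold, where 3.98% of all autosomal genes did in that direction (6.31% in either) and 50% lay above 0. Of 193 lower genes 189 (97.9%) were lower again and 46 (23.8%) passed, where 2.33% of all genes did. None passed in the opposite direction. The counts of higher genes here and in the F1 leave in any fitted ones of the 3 that reached the minimum value only through the NZO controls. In 83 higher and 36 lower genes the 3 NZO libraries lay outside all 19 others, beside 1.16% and 0.86% of all genes (2.02% in either direction). Median differences were 0.81 and -0.40. All 14 named higher genes and 13 of the 14 named lower genes passed.

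The F1 controls asked whether cells with an NZO father, from other embryos, differed from the 4 other crosses in the same direction. Of 261 higher genes fitted there, 179 (68.6%) were higher in xNZO, beside 51.6% of all autosomal genes, and 60 (23%) passed the limma test at an adjusted p below 0.05, beside 4.97% (9.23% in either direction). Of 191 lower genes 141 (73.8%) were lower, beside 48.4%, and 29 (15.2%) passed, beside 4.26%. The median differences were 0.19 and -0.10. In 27 higher and 10 lower genes xNZO lay outside all other F1 controls, beside 1.63% and 1.25% of all genes (2.88% in either direction). Without xNZO replicate 2, 45 higher and 19 lower genes passed, and without replicate 3, 45 and 25. A total of 59 genes passed both with TM and in xNZO, 43 higher (with Ms4a2, at the minimum value only in NZO controls) and 16 lower. Beside those described above they included Pkhd1l1, Crb2, Ctnnd2, Adgrb2 and Lrrn2 on the higher side and Anxa8, Fam20a, Cdkn2c and Bid on the lower side, which were chosen after their values were seen. Crb2, a polarity protein, was at 5.33 and 4.20 in NZO against 0.494 to 3.90, and at 2.79 to 3.70 in xNZO against 0 to 1.68.

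**Figure D4:**
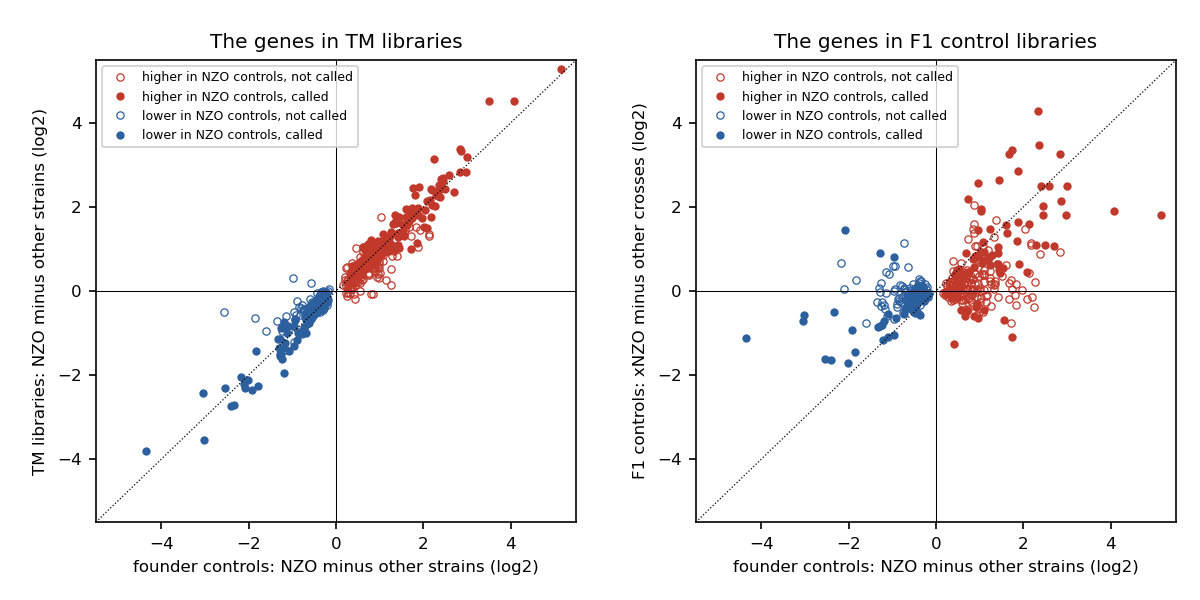
Log2 differences of NZO-particular genes in founder controls (x axis) against those in TM libraries (left, NZO minus other strains) and in F1 controls (right, xNZO minus other crosses). Filled points passed the limma test of the y axis, red genes were higher and blue genes lower in NZO controls, and the dotted line marks equal differences. With TM the points follow the line, and in F1 controls they spread around 0 with 12 higher and 3 lower genes that passed in the opposite direction.

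Passing in the opposite direction in xNZO were 12 higher and 3 lower genes. Sfrp1, a secreted Wnt antagonist, was at 45.1 and 40.2 in NZO against 4.56 to 28.5, and at 7.33, 8.39 and 6.55 in xNZO against 2.93 to 184.5 (difference -1.09 ± 0.13, limma adjusted p = 1.71e-04). The xWSB libraries stood far above the rest (130.5 to 184.5), and xNZO lay above x129 (2.93 to 4.03) and overlapped xNOD (6.93 to 8.60). Serpine2, a protease inhibitor, was at 294.0 and 309.3 against 83.3 to 253.5, and lower in xNZO (-0.45, adjusted p = 8.92e-04). Hspb7, Nfatc1, Npr3 and Has2, the hyaluronan synthase, showed the same turn, with xNZO differences of -0.69, -0.64, -0.59 and -0.47. On the lower side, Dpt, dermatopontin of the skin matrix, was at 1.46 and 0.839 in NZO against 1.59 to 17.2, and higher in xNZO (1.46 ± 0.17, adjusted p = 1.17e-04). Wnt4 (4.60 and 5.04 against 5.55 to 16.01) and Krt19, an epithelial keratin (15.2 and 13.3 against 22.5 to 66.3), were higher in xNZO by 0.80 and 0.90. The xNZO libraries overlapped other crosses for all of these genes. B6, the mother of all crosses, had the highest founder mean of Dpt (14.4).

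**Figure D5:**
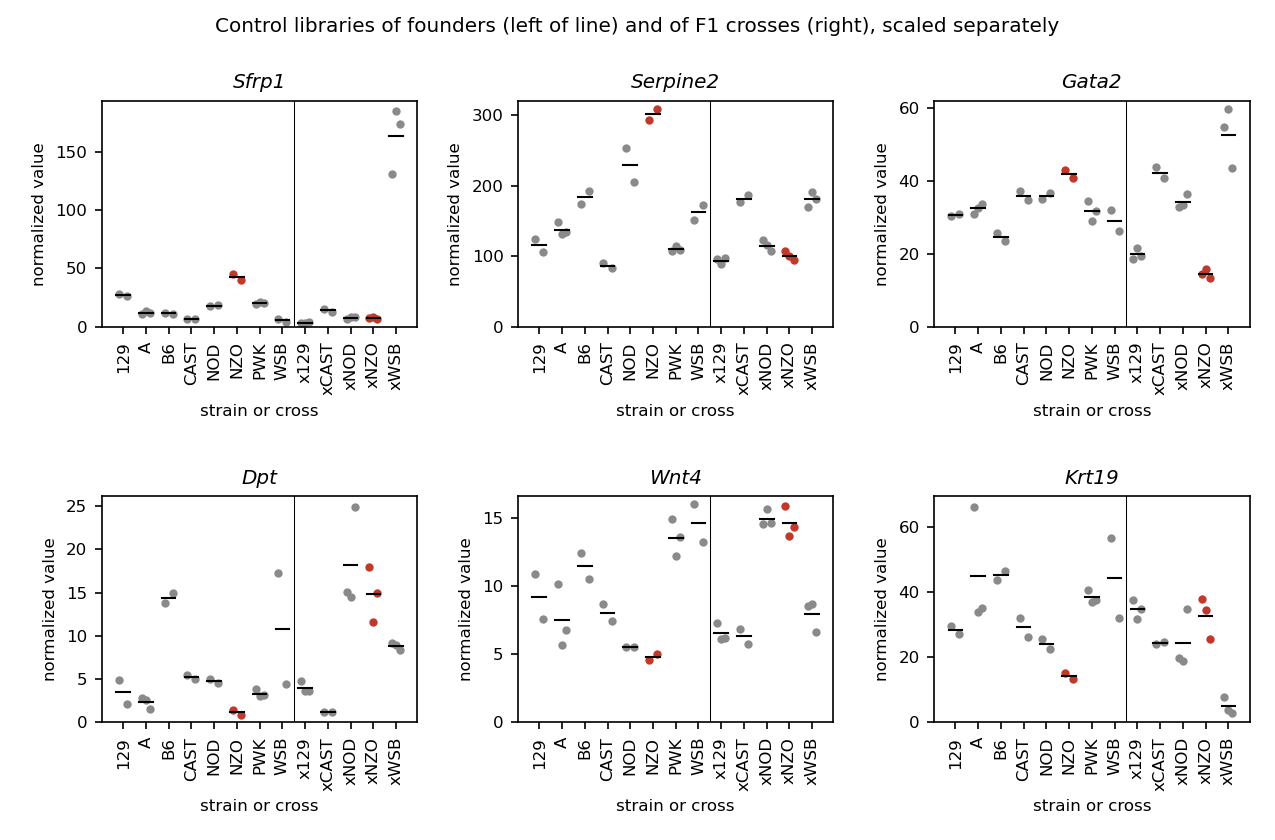
Normalized values of 6 genes whose xNZO difference was opposite to the NZO difference, in control libraries of the 8 founder strains (left of the line) and 5 crosses (right of it), scaled separately; points are libraries, bars are genotype means, and NZO and xNZO are in red. Sfrp1, Serpine2 and Gata2 are highest in NZO and low in xNZO, and Dpt, Wnt4 and Krt19 are lowest in NZO and among the higher crosses in xNZO.

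By position, NZO-particular genes were found on all 19 autosomes, from 2.35% of the genes tested on chromosome 10 to 6.44% on chromosome 6 (42 of 652). Counting genes tested in order along a chromosome, 33 pairs of neighbours were both NZO-particular, 26 of them on the same side, in 31 runs of which 2 held 3 genes (the Ly49 run and the run at Irgm1). Other runs joined Hoxa6 with Hoxa7, Acan with Hapln3, Bcas3 with Tbx2, and Tll1 with Cpe on the higher side, and Ccdc85a with Efemp1 and H2-DMb1 with Tap1 on the lower side.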

How the data were processed

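Libraries were single-end mRNA-seq. Alignment by the authors used TopHat 1.4.1 and a genome for each strain (GRCm38, per the submitters' processing notes). The authors scaled libraries by TMM with edgeR and repeated this after taking out libraries that clustered apart from their condition, which are not analysed here. The deposited signal values carry the name FPKM. In each library they are whole multiples of a fixed step (100% of values, within 0.02 of a read), so the authors' signal is scaled reads per gene without division by length, and recovered reads served for count tests as alternatives. Founder and F1 tables were scaled separately. Lines for unassigned reads (15.5 to 24.1% of F1 signal) were left out.

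NZO was compared with the equally weighted mean of the other genotypes on log2(value + 0.1) by limma 3.58.1 (eBayes with trend, R 4.3.3), over genes that reached 0.5 in 2 or more libraries. The pseudocount makes differences of low genes too small. Adjusted p-values (Benjamini-Hochberg) cover all genes fitted, with calls below 0.01 and at least 1.5 fold in founders, and below 0.05 in F1. The limma fit was tried on simulated counts with a fixed spread and the same mean in all other genotypes. That trial does not cover the strain and litter differences of these data. The test was designed for FPKM and kept for the signal. Positions came from GENCODE and promoters from RefSeq, both on GRCm38, and 174 genes without a position were not tested. Genes were named by size of difference (14 per side among those called by limma in founder controls with a mean of at least 2 and a symbol that is not a clone name), by membership of the lists and by nearness to the edge of the rule; neighbours and genes opposite in F1 were named after their values were seen. The genes, the lists and the rule were chosen with earlier results of these data known, and the lists of biosynthesis genes after values were seen. The alternatives were another pseudocount, filters, scaling, variance prior, count tests (edgeR 4.0.16, DESeq2 1.42.0), a replicate block, and fits without CAST and PWK, without xCAST or without each library. Counts of low genes carry counting error that the tests see only as spread. Results for 1 or more withheld items are not reported here.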

Additional observations from a re-analysis of the deposited data

Results flagged for a closer look

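In 3 NZO-particular genes every xNZO control lay on the opposite side of all other crosses from where the NZO controls lay among founders. The difference between the sets was not itself tested. Scara3, a scavenger receptor, was at 37.7 and 36.5 in NZO against 12.9 to 34.7, and at 11.8 to 12.97 in xNZO against 13.3 to 30.7 (log2 difference -0.60, limma adjusted p = 6.38e-04). Ank, a transporter that limits mineralization, was at 437.6 and 424.5 against 201.1 to 417.6, and at 201.3 to 223.4 in xNZO against 233.9 to 328.5 (-0.45, adjusted p = 0.00279). Gata2, a transcription factor, was at 43.0 and 40.7 against 23.5 to 37.1, and at 13.4 to 15.8 in xNZO against 18.6 to 59.6 (-1.26, adjusted p = 3.65e-06). In founders the differences were 0.67, 0.57 and 0.42.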

How the results depend on the processing

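Counts of NZO-particular genes and of limma calls stayed within 1.5 times of the reported ones under another pseudocount, filters, scaling and variance prior, and under edgeR, in each fit those were run for. Without CAST and PWK, 428 higher and 338 lower genes were NZO-particular, and limma called 145 and 99 among all genes of the controls (318 and 172 with them). DESeq2 called 508 higher. A gap of at least 1.5 fold left 25 and 12 genes. Leaving out a library each in turn gave 280 to 490 higher and 197 to 500 lower NZO-particular genes, the highest without either NZO control. Limma calls in the controls then ran from 61 to 436 higher and 41 to 238 lower, lowest without an NZO control (73 and 52 without replicate 2, 61 and 41 without replicate 3) and highest without replicate 1 of A. NZO-particular genes called with TM ran from 100 to 148 higher and 40 to 52 lower, and in xNZO from 45 to 73 higher and 19 to 37 lower, lowest without xNZO replicate 2 or 3. No named gene reversed. The named genes were chosen by their call in these same control libraries, so their refits describe stability and are no separate support. In refits of the 28 named genes the call in the controls was kept 719 times and lost 34 times. The losses were not evenly spread and fell most often in the fits without an NZO control. Upk3b also lost its call in other refits, among them those without CAST and PWK (limma adjusted p = 0.0354) and without a trend in the variance prior (limma adjusted p = 0.0142). Same-numbered founder controls of different strains had a median correlation of 0.04 (from -0.14 to 0.48), against -0.03 for controls of different number. The medians were 0.08 and -0.06 with TM, and 0.09 and -0.04 in F1 controls. Whether replicates of the same number shared an effect was not tested. A replicate block gave 343 higher and 190 lower calls in the controls, 137 and 47 with TM, and 57 and 31 in xNZO. The founder contrast sets a pair of NZO wells of a single pool against 7 strains, so it holds for these cells. Genes at a few reads in the NZO controls, such as H2-DMb1 and Tek, carry large counting error.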
